A study of Mus musculus with 8 samples.

Results

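The C/EBP (CCAAT/enhancer-binding protein) transcription factors were examined in articular chondrocytes of the mouse, in primary culture, with IL-1β or with vehicle. The 5 genes were taken by symbol from the deposited table, as *Cebpa*, *Cebpb*, *Cebpd*, *Cebpg* and *Cebpz*, out of 54658 gene symbols. All 5 had a CPM, the count of a gene relative to the total of its sample, above 1 in at least 4 samples and were among the 14404 genes tested. The series compared 4 samples given IL-1β at 1 ng/mL for 24 h with 4 samples given vehicle, by bulk RNA-Seq of total RNA. Both groups came from femoral head cartilage of wild-type mice aged 3 weeks, digested and cultured in medium with serum, and per the labels the groups differed in the treatment alone. The sources used here do not say whether the 4 samples of a group came from separate animals or cultures, so p-values measure only the spread between these samples, which may be technical. In bulk RNA, a change in the number of cells that express a gene and a change in the RNA per cell cannot be told apart.

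C/EBPα, C/EBPβ, C/EBPδ and C/EBPγ are basic leucine zipper (bZIP) proteins, which bind DNA as homodimers or heterodimers with each other and with bZIP proteins of other families. C/EBPβ and C/EBPδ are known as mediators of the response to IL-1 and IL-6 and of acute-phase gene expression, and C/EBPα as a factor of adipocyte and granulocyte differentiation. C/EBPγ lacks a transactivation domain and pairs with C/EBPβ and with ATF4. The protein of *Cebpz* carries a C/EBP name but belongs to a family of nucleolar ribosome assembly factors and has no leucine zipper. In cartilage, C/EBPβ is known from work on chondrocyte hypertrophy and on the matrix-degrading enzymes that inflammatory cytokines induce.

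The 5 genes lie on 4 chromosomes of the mouse genome GRCm38 (mm10), and the positions are those of GENCODE vM21. *Cebpb* (ENSMUSG00000056501.3) spans chromosome 2, 167688915 to 167690418 on the plus strand, as a single exon of 1504 bases. From this one mRNA, alternative start codons give a long activating and a short inhibitory form of the protein, which gene counts cannot separate. *Cebpd* (ENSMUSG00000071637.5) spans chromosome 16, 15887286 to 15891031 on the plus strand. *Cebpa* (ENSMUSG00000034957.10) and *Cebpg* (ENSMUSG00000056216.9) are neighbours on chromosome 7. *Cebpg* lies at 35046422 to 35056573 on the minus strand and *Cebpa* at 35119293 to 35121928 on the plus strand, so that 62720 bases separate the gene bodies. *Cebpz* (ENSMUSG00000024081.9) lies on chromosome 17, 78919006 to 78937066 on the minus strand, with up to 16 exons in a transcript.

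Promoter sequences of *Cebpb*, *Cebpa* and *Cebpg* were taken from the RefSeq annotation of GRCm38.p6. They are shown because the promoter set used here held these 3 members only. It held no promoter of *Cebpd*, the member with the largest fold change, or of *Cebpz*. Each sequence is the 250 bases upstream of the RefSeq transcription start, 5′ to 3′ on the gene's strand. Capitals mark matches, on either strand, to the TATA box letters TATAAA, the GC box letters GGGCGG, the CCAAT box, which reads ATTGG on the opposite strand, and the core of the cAMP response element, TGACG, whose reverse complement is CGTCA.
*Cebpb*, chr2:167688665-167688914, plus strand: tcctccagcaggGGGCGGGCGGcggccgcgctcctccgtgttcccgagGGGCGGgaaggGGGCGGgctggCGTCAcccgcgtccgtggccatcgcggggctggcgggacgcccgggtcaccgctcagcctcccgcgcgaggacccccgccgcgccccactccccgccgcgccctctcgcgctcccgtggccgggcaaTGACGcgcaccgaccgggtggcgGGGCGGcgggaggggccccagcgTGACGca
*Cebpa*, chr7:35119043-35119292, plus strand: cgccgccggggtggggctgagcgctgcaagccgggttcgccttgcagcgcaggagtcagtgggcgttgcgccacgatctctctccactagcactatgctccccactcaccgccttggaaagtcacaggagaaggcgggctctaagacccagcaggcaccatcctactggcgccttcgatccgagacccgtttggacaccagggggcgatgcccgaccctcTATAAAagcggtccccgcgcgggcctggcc
*Cebpg*, chr7:35056567-35056816, minus strand: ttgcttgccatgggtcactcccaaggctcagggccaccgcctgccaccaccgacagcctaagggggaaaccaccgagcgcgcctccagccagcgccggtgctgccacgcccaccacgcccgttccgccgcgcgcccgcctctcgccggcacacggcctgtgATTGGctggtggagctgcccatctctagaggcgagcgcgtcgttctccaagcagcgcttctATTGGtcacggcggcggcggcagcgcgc

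The sequences differ in composition and in the matches they hold. The *Cebpb* stretch is 81.6% G or C, the *Cebpg* stretch 70.8% and the *Cebpa* stretch 66.4%, against a median of 52.4% over the 32851 promoters of the table. Motifs were searched in windows of 300 bases, which add the first 50 transcribed bases. *Cebpb* holds 5 GC boxes, of which the 2 farthest from the start overlap, and 3 cAMP response element cores, the nearest at -7 to -3 from the start. It also holds a TATAAA downstream of the start, at 22 to 27. *Cebpa* holds a TATAAA at -30 to -25. *Cebpg* holds CCAAT boxes at -89 to -85 and at -28 to -24, and a GC box after the start, at 45 to 50. Of all promoters in the table, 35.7% hold a GC box, 20.8% a cAMP response element core, 13.6% TATAAA and 37.4% CCAAT. No match to a C/EBP site (TTNNGNAA, present in 40.7% of promoters) or a STAT site (TTCNNNGAA, 8.3%) was present in these windows, which says only that these letters are absent there. Matches to letters describe the sequence and were not tested as binding sites.

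*Cebpd*, *Cebpb* and *Cebpa* rose with IL-1β, *Cebpg* fell by 10.2%, and *Cebpz* did not pass the test. The calls were made by edgeR's quasi-likelihood test with Benjamini-Hochberg adjustment over all genes tested, at an adjusted p under 0.05. Among all 14404 genes, 20.4% rose, 19.8% fell and 40.2% were called in either direction, so a call in 4 of 5 members has to be read against a background in which many genes moved. A rise of more than 2-fold was less common, at 2.86% of genes (2.35% fell as far), and 3 of the 5 members had one. For *Cebpa* this depended on 1 sample, as described with its values.

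*Cebpd*, which encodes C/EBPδ, a member that is low in many resting cells and rises early in inflammation, had the largest fold change of the 5. The IL-1β samples had 367, 363, 393 and 390 CPM, scaled by the trimmed mean of M-values (TMM). The vehicle samples had 95.9, 97.7, 89.7 and 91.2 CPM. The lowest IL-1β sample was thus far above the highest vehicle sample, and both groups were narrow. The means were 378 ± 15.6 and 93.6 ± 3.79 CPM (SD, n = 4 each), a 4.04-fold rise, with a log2 fold change of 2.01 (SE 0.0368, 95% CI 1.94 to 2.09, adjusted p = 1.63e-26). A larger log2 fold change was found in 0.833% of the genes tested.

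*Cebpb*, which encodes C/EBPβ, was the most abundant member and rose less in proportion. IL-1β samples had 548, 498, 532 and 535 CPM, and vehicle samples 214, 214, 205 and 225 CPM. The groups did not overlap. The means were 528 ± 21.1 and 214 ± 8.08 CPM (SD, n = 4 each), a 2.46-fold rise, with a log2 fold change of 1.30 (SE 0.0354, 95% CI 1.23 to 1.37, adjusted p = 2.67e-22). A larger log2 fold change was found in 1.94% of the genes tested.

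*Cebpa*, which encodes C/EBPα, was the least abundant member and the least precisely measured. IL-1β samples had 16.4, 16.6, 18.8 and 20.7 CPM, from 181 to 315 counts. Vehicle samples had 8.45, 8.75, 8.51 and 9.16 CPM, from 119 to 151 counts. The groups did not overlap, and the IL-1β samples were more spread than the vehicle samples. The means were 18.1 ± 2.05 and 8.72 ± 0.324 CPM (SD, n = 4 each), a 2.08-fold rise, with a log2 fold change of 1.06 (SE 0.0898, 95% CI 0.88 to 1.24, adjusted p = 7.15e-11). The confidence interval includes 1 on the log2 scale, and without IL-1β replicate 4, the sample with the highest value, the log2 fold change was 0.99, so the rise of *Cebpa* passed the test in either case but a change of more than 2-fold did not hold.

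*Cebpg*, which encodes C/EBPγ, moved the other way by a small amount. IL-1β samples had 87.1, 91.5, 79.2 and 82.7 CPM, and vehicle samples 95.7, 96.0, 92.4 and 94.2 CPM. The groups came within 1 CPM of each other, between 91.5 and 92.4, without overlap. The means were 85.1 ± 5.32 and 94.6 ± 1.68 CPM (SD, n = 4 each), and the log2 fold change was -0.16 (SE 0.0403, 95% CI -0.24 to -0.07, adjusted p = 0.00249). The difference of the means was 1.78 times the larger SD, and 25.0% of the genes tested had a lower log2 fold change.

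*Cebpz*, the nucleolar member, had the smallest difference of the 5. IL-1β samples had 53.1, 53.5, 52.9 and 53.0 CPM, and vehicle samples 53.7, 53.6, 54.3 and 56.2 CPM. The vehicle samples were all above the IL-1β samples, by as little as 53.5 against 53.6 CPM. The means were 53.1 ± 0.28 and 54.4 ± 1.25 CPM (SD, n = 4 each), and the log2 fold change of -0.03 (SE 0.0394, 95% CI -0.12 to 0.05, adjusted p = 0.537) did not pass the test. The interval bounds the change, which may still be a small fall or rise. In all, the groups of all 5 members did not overlap, as was the case for 36.8% of the genes tested (18.7% with IL-1β above and 18.2% with IL-1β below vehicle). For *Cebpg* and *Cebpz* the gap was smaller than the SD within either group.

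**Figure D1:**
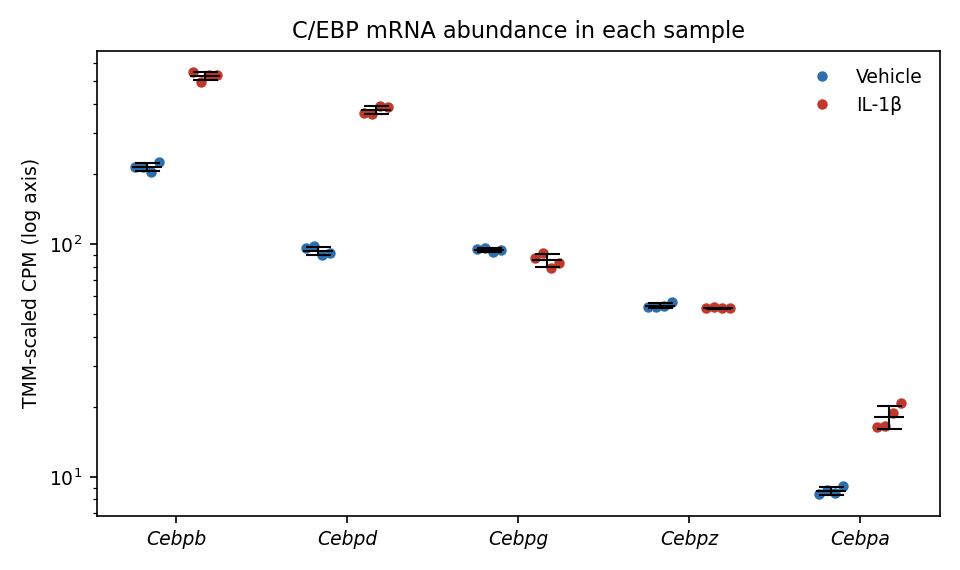
TMM-scaled CPM (log axis) of the 5 C/EBP genes in each sample, in order of their level per kilobase, with vehicle in blue, IL-1β in red and bars for the mean ± SD of 4 samples. *Cebpb*, *Cebpd* and *Cebpa* are clearly higher with IL-1β, *Cebpg* is slightly lower at 85.1 against 94.6 CPM, and *Cebpz* lies at 53.1 against 54.4 CPM.

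Levels of different genes can be compared only per length, so counts were divided by the deposited gene length in kilobases and scaled so that the levels of each sample had the same sum. On this per-kilobase scale the order was *Cebpb*, *Cebpd*, *Cebpg*, *Cebpz* and *Cebpa* in both groups, and no sample of a member overlapped with a sample of its neighbour in the order within a group. In vehicle samples the levels per kilobase were 397 ± 9.08 for *Cebpb*, 69.8 ± 4.05 for *Cebpd*, 47.0 ± 1.68 for *Cebpg*, 32.6 ± 0.303 for *Cebpz* and 9.22 ± 0.117 for *Cebpa* (SD, n = 4). In IL-1β samples the levels per kilobase were 949 ± 49.6, 272 ± 5.31, 41.0 ± 3.54, 30.8 ± 0.99 and 18.5 ± 1.64, respectively (SD, n = 4). While the order stayed, the spacing did not. In vehicle samples *Cebpd* was 1.49 times the level of *Cebpg*, the next gene in the order, and in IL-1β samples it was 6.65 times that level. *Cebpb* was among the most abundant transcripts in the cells, since 1.6% of the genes tested had a higher level per kilobase in vehicle samples and 0.632% in IL-1β samples.

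The summed level per kilobase of the 4 bZIP members was 523 ± 12.7 in vehicle and 1281 ± 52.5 in IL-1β samples (SD, n = 4 each), a ratio of 2.45, and the groups did not overlap. *Cebpb* made up most of this sum in both groups, at 75.9% ± 0.741 in vehicle and 74.1% ± 0.822 in IL-1β samples. The sum leaves out *Ddit3*, a further bZIP member of the family, whose count is uncertain. Levels of *Ddit3* per kilobase were 371 to 414 in vehicle samples, near those of *Cebpb*, and 275 to 290 in IL-1β samples. With *Ddit3* included, the sum, its ratio and all shares would differ. The share of *Cebpd* was 13.3% ± 0.561 in vehicle and 21.3% ± 0.726 in IL-1β samples. The share of *Cebpg*, whose protein has no transactivation domain, was 8.97% ± 0.225 in vehicle and 3.20% ± 0.294 in IL-1β samples. That of *Cebpa* was 1.76% ± 0.0412 and 1.45% ± 0.146, respectively. With IL-1β the share of *Cebpd* was thus higher and that of *Cebpg* lower in every sample, while that of *Cebpb*, at 73.5 to 75.3% against 75.4 to 77.0%, was only slightly lower. Shares of one sum move against each other by construction, and these are shares of mRNA, not of protein.

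**Figure D2:**
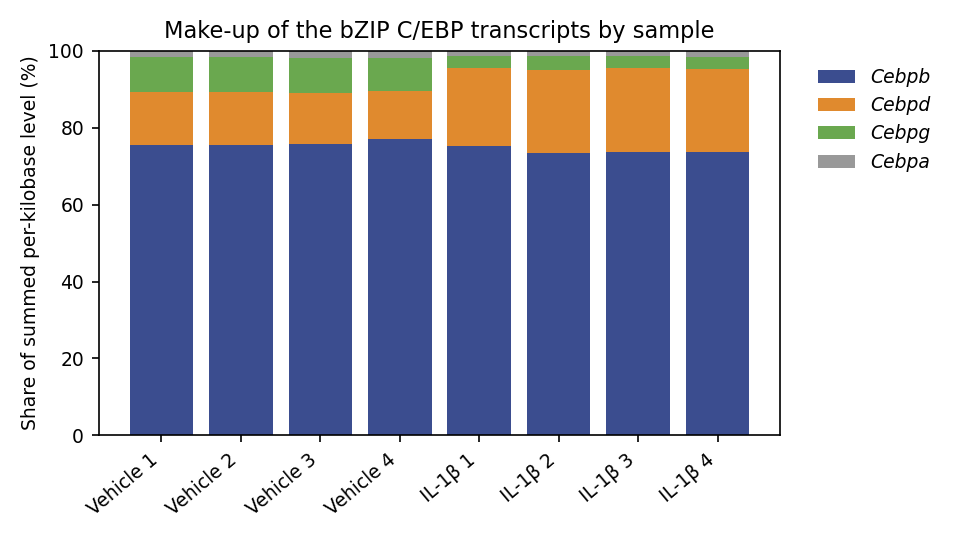
Share of *Cebpb*, *Cebpd*, *Cebpg* and *Cebpa* (%) in their summed level per kilobase, without *Ddit3*, 1 bar per sample. In vehicle samples *Cebpd* makes up 12.5 to 13.8% and *Cebpg* 8.64 to 9.13%, and in IL-1β samples 20.2 to 21.9% and 2.93 to 3.61%.

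Ratios between members within a sample do not depend on how samples are scaled against each other. For all 10 pairs, the log2 ratio of counts (0.5 added to each count) was compared between the groups by an exact permutation test, two-sided, for which 0.0286 is the smallest p that 4 against 4 samples can give. Of the 10 pairs, 9 reached it (adjusted p = 0.0317 over the 10 pairs) and had no overlap between the groups. The 10 pairs are built from 5 genes, so they are not independent and restate the fold changes above. The adjusted p of the 9 pairs is under 0.05 only because so many pairs sit at the smallest p. Of single genes tested, 36.8% had no overlap, and the share over other gene pairs was not computed. The largest change was in *Cebpd/Cebpg*, from -0.02 ± 0.035 in vehicle to 2.15 ± 0.148 in IL-1β samples (log2 ratio, SD, n = 4 each). Vehicle samples thus held nearly equal counts of both genes, before any correction for length, and with IL-1β the ratio was 4.49 times as high. The ratio *Cebpb/Cebpg* changed by 1.46 and *Cebpa/Cebpg* by 1.20 on the log2 scale.

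The 3 members that rose did not rise by the same factor. The log2 ratio *Cebpb/Cebpd* was 1.19 ± 0.0754 in vehicle and 0.48 ± 0.0653 in IL-1β samples (SD, n = 4 each), a change of -0.71. *Cebpa/Cebpd* changed by -0.97. *Cebpa/Cebpb* changed by -0.26, with a gap of 0.03 between the groups, and this change lost its call (adjusted p = 0.0635, exact permutation test) when any 1 vehicle sample was left out. Relative to *Cebpz*, the changes were 2.05 for *Cebpd*, 1.34 for *Cebpb* and 1.08 for *Cebpa*. *Cebpg/Cebpz* changed by -0.12, with overlapping groups (p = 0.0857, exact permutation test), so a fall of *Cebpg* relative to *Cebpz* was not shown, while without IL-1β replicate 2 the change was -0.15 and reached p = 0.0286 (exact permutation test).

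**Figure D3:**
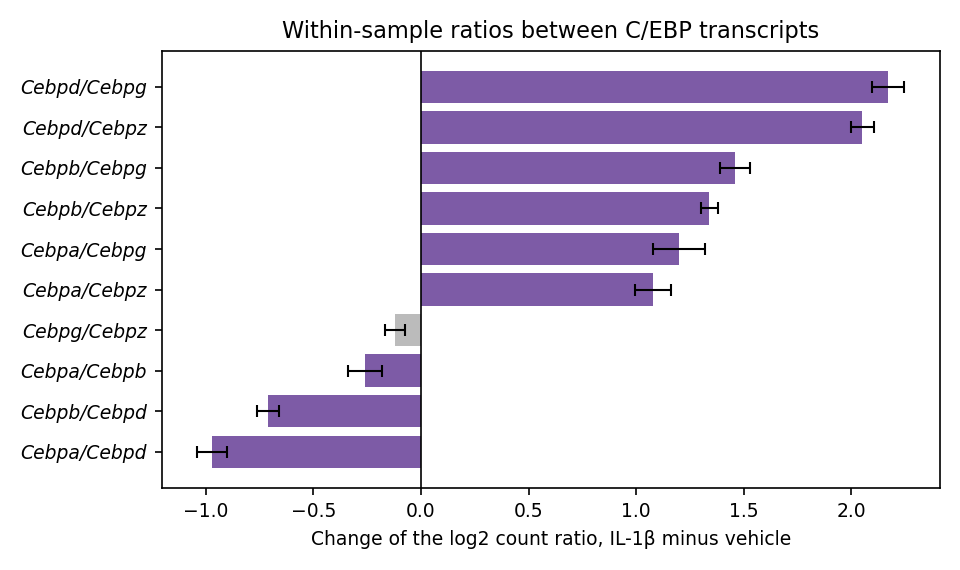
Change of the log2 count ratio between 2 C/EBP genes, IL-1β minus vehicle, for all 10 pairs, where bars are differences of group means and error bars the standard error of the difference (4 samples per group). The 9 pairs in purple had no overlap between groups, from 2.17 for *Cebpd/Cebpg* to -0.97 for *Cebpa/Cebpd*, and *Cebpg/Cebpz* in grey is at -0.12.

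The members share exon bases with other genes in the annotation. The exons of *Cebpb* overlap with *Tmem189* on the opposite strand over 312 bases, 20.7% of its exon length, and those of *Cebpd* with *Spidr* on the opposite strand over 562 bases, 15% of its length. Whether reads were counted by strand is not given in the sources used here, so to which gene reads of these stretches were counted is not known. *Spidr*, a DNA repair scaffold, rose from 12.7 ± 0.748 to 33.7 ± 2.48 CPM (SD, n = 4 each), with a log2 fold change of 1.41 (SE 0.0673, adjusted p = 1.78e-16). The part of reads from the shared bases in the values of *Spidr* and of *Cebpd* was not tested. *Tmem189* rose by 0.34 (SE 0.0645, adjusted p = 8.14e-05), at 27.0 against 21.3 CPM, and for *Tmem189* and *Cebpb* this was not tested either.

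The other genes within 10 kb of a member gave little. The lincRNA *A530013C23Rik*, 759 bases from *Cebpb* on the same strand, rose by 0.88 (SE 0.144, adjusted p = 1.12e-05) from 2.87 ± 0.316 to 5.30 ± 0.605 CPM (SD, n = 4 each). *Pepd*, which lies 1714 bases from *Cebpg* and encodes a dipeptidase, had a log2 fold change of 0.05 and did not pass the test. Neither did *Gm44836* (-0.30), *Gm45094* (-0.44) and *Gm45095* (-0.02) at *Cebpg*, nor *Cebpzos* (-0.29) and *Ndufaf7* (-0.14) at *Cebpz*. Without IL-1β replicate 1 or 4, *Gm45094* was called lower (-0.55 in both, adjusted p = 0.0384 and 0.0419). *Gm45091*, antisense to *Cebpa*, and *Gm45096* near *Cebpg* were too low to test, at 6 to 13 and 0 to 4 counts.

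Of the remaining bZIP members of the family, *Cebpe*, a factor of granulocyte maturation, had 0 counts in all 8 samples, which allows up to 3 counts or 0.172 to 0.273 CPM per sample and covers counting error only. *Ddit3*, which encodes CHOP, a stress-induced inhibitor of C/EBP dimers, had 177, 177, 182 and 178 CPM in the IL-1β samples and 249, 236, 232 and 237 in the vehicle samples. It fell by 0.42 on the log2 scale (SE 0.0311, adjusted p = 4.4e-12), without overlap of the groups. Its symbol covers 2 overlapping genes in the annotation, so its count is uncertain.

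Of the 17 bZIP partners and competitors listed, which form dimers with C/EBP proteins or bind related sites, 15 were tested, 4 rose and 8 fell, with a median log2 fold change of -0.14 against -0.001 over all genes tested. Counts for this and the later lists have to be read against all genes tested, of which 20.4% rose and 19.8% fell. *Batf3*, a factor of dendritic cell development, fell by 3.39 (SE 0.316, adjusted p = 5.06e-10), on few reads, with 3 to 4 counts against 30 to 53 with vehicle. *Fos*, the early-response AP-1 subunit, fell from 24.8 ± 0.735 to 10.8 ± 0.661 CPM (SD, n = 4 each), with a log2 fold change of -1.19 (SE 0.0711, adjusted p = 3.52e-14). The circadian factor *Dbp* fell by 0.98 and *Fosb* fell by 0.93 on the log2 scale, both below 10 CPM. *Batf3* and *Fosb* passed the filter on low counts only through their vehicle samples. For these genes a fall was fixed in advance, and they add to the count of genes that fell. With a CPM above 1 required in all 8 samples, 6 genes of the list were called lower. *Atf4*, the partner of C/EBPγ in the amino acid response, lay at 885 to 933 CPM in the IL-1β samples, at 867 to 890 CPM in the vehicle samples, and did not pass the test (log2 fold change 0.06, adjusted p = 0.117).

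All 20 genes listed as regulators of C/EBP synthesis or activity were tested, of which 8 rose and 6 fell (median log2 fold change 0.02). *Nfkbiz*, which encodes IκBζ, a nuclear cofactor of NF-κB at acute-phase genes, had 277, 264, 284 and 277 CPM in the IL-1β samples and 41.6, 45.2, 44.6 and 46.5 in the vehicle samples. It rose by 2.63 on the log2 scale (SE 0.0359, adjusted p = 1.45e-29) and was the only gene of this list past a 2-fold change. *Trib1*, a pseudokinase adaptor for the degradation of C/EBPα, rose from 17.2 ± 1.11 to 29.9 ± 1.4 CPM (SD, n = 4 each), by 0.79 (SE 0.0625, adjusted p = 1.45e-11). The kinase gene *Rps6ka1*, whose product RSK1 phosphorylates C/EBPβ, rose by 0.53. *Id2*, an inhibitor of basic helix-loop-helix factors, fell by 0.49, and *Fbxw7*, a ubiquitin ligase subunit that targets C/EBPδ and C/EBPα, fell by 0.22. *Stat3*, which activates the *Cebpd* gene downstream of IL-6, lay at 160 to 168 CPM in the IL-1β samples, at 165 to 172 CPM in the vehicle samples, and did not pass the test (log2 fold change -0.03, adjusted p = 0.473).

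Among the 21 inflammatory and acute-phase genes listed as C/EBP targets, 16 were tested and 14 rose, each by more than 2-fold, with a median log2 fold change of 5.0 against -0.001 over all genes tested. These genes were chosen with the results of these samples known, so the count is a description. Some of them, among them *Saa1*, *Saa2*, *Saa3* and *Cxcl5*, passed the filter on low counts only through their IL-1β samples. For such genes a rise was fixed in advance, and they add to the count and the median. With a CPM above 1 required in all 8 samples, 9 genes of the list were called higher. *Saa3*, a serum amyloid A made outside the liver, rose from 0.918 ± 0.339 to 723 ± 51.9 CPM (SD, n = 4 each), with a log2 fold change of 9.57 (SE 0.0865, adjusted p = 7.61e-34). *Cxcl5*, a neutrophil chemokine, had 0 to 3 counts in vehicle samples and was at least 284-fold higher with IL-1β, at 53.9 ± 3.63 CPM (SD, n = 4). *Saa1* and *Saa2* were at least 35.4-fold and 44.4-fold higher, at 6.72 and 8.43 CPM, where the bound sets each vehicle sample at 3 counts. *Ptgs2*, the inducible cyclooxygenase, was at 368 ± 8.14 with IL-1β and 386 ± 9.29 CPM with vehicle and did not pass the test (log2 fold change -0.07, adjusted p = 0.0792), nor did *Orm2* (0.19, adjusted p = 0.677). The call of *Ptgs2* depended on single samples, since it was lower without IL-1β replicate 1 (-0.08, adjusted p = 0.0388) or without vehicle replicate 1 (-0.09, adjusted p = 0.0343). *Il6*, under the filter on low counts, had 14 to 26 counts with IL-1β and 0 with vehicle, at least 7.14-fold higher. *Orm1*, *Il1b*, *Tnf* and *Csf3* were too low to test.

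Other targets of single members went in other directions. Of 12 adipogenic targets of C/EBPα, 4 were tested and 3 fell, with a median log2 fold change of -0.92. *Pparg*, the factor that acts with C/EBPα in adipocytes, fell from 9.0 ± 0.871 to 2.24 ± 0.347 CPM (SD, n = 4 each), by 1.98 on the log2 scale (SE 0.138, adjusted p = 9.34e-13), *Lpl* fell by 1.56 and *Scd1* fell by 0.24. *Cebpa* itself rose in the same samples. Of 10 listed chondrocyte genes with a known link to C/EBPβ, 9 were tested, 7 fell and 2 rose, with a median of -1.14. The list does not separate genes that C/EBPβ may raise from genes that it may lower. *Col2a1*, *Acan* and *Sox9* are also counted among the chondrocyte markers, and *Mmp13* among the inflammatory targets. *Col10a1*, a collagen of hypertrophic cartilage, fell by 3.00 (SE 0.0533, adjusted p = 9.45e-27) from 102 ± 4.17 to 12.7 ± 0.986 CPM (SD, n = 4 each). The cartilage matrix genes *Acan* and *Col2a1* had log2 fold changes of -2.37 and -1.98, whereas *Mmp13*, a collagenase, rose by 2.71 (SE 0.04, adjusted p = 1.02e-28) from 32.2 ± 2.11 to 212 ± 4.96 CPM (SD, n = 4 each).

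The amino acid and stress response genes tied to C/EBPγ and ATF4 included genes that rose and genes that fell. All 13 were tested, 4 rose, of which 1 by more than 2-fold, and 6 fell, with a median log2 fold change of -0.04. The 4 that rose were *Slc7a11* (1.31, SE 0.0467, adjusted p = 1.58e-19), the cystine transporter, *Gclc* (0.42) and *Gclm* (0.40), the subunits of the enzyme that starts glutathione synthesis, and *Shmt2* (0.23), of mitochondrial serine metabolism. *Slc7a11* was at 51.4 ± 1.61 CPM in vehicle and 128 ± 10.6 CPM in IL-1β samples (SD, n = 4 each). The 18 nucleolar ribosome assembly genes, the functional relatives of *Cebpz*, were all tested, 1 rose and 9 fell, with a median of -0.11. *Nop56* (log2 fold change -0.32), *Rrp9* (-0.31), *Nop58* (-0.25) and *Wdr12* (-0.23) fell the most, and *Noc2l*, whose product belongs to a related family, rose by 0.14 (SE 0.0346, adjusted p = 0.00221).

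**Figure D4:**
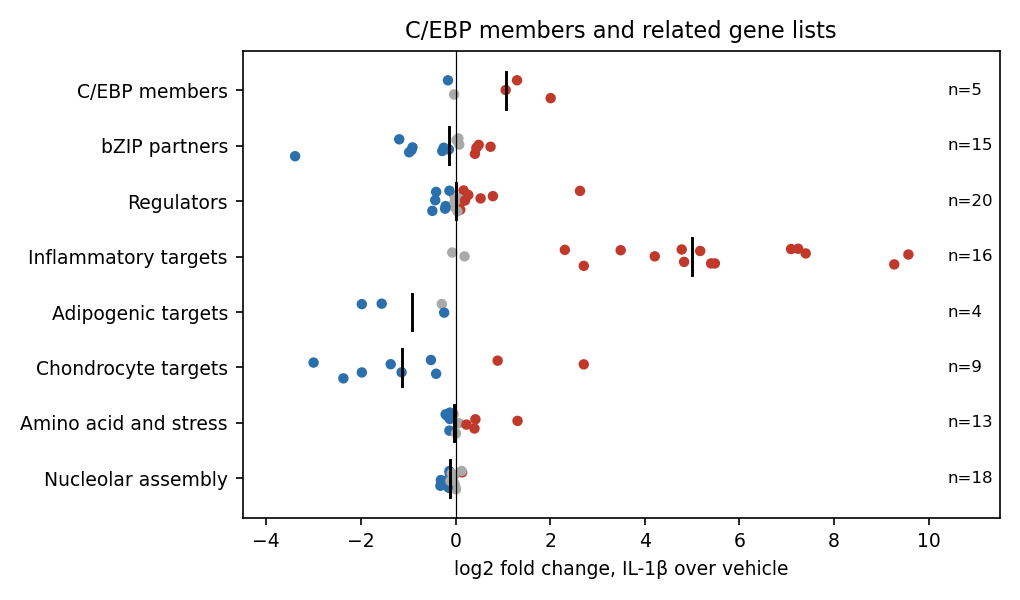
Log2 fold change, IL-1β over vehicle, of each tested gene in the C/EBP family and in the lists of partners, regulators and targets, with 1 point per gene (red for genes that rose, blue for genes that fell, grey for genes not called) and a black line for the median. The inflammatory targets have a median of 5.0, the adipogenic targets -0.92 and the chondrocyte targets -1.14. The medians of the partners (-0.14), regulators (0.02), amino acid genes (-0.04) and nucleolar genes (-0.11) lie around 0.

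Markers of cell types were compared beside these results. All 10 chondrocyte markers were expressed and fell, with a median log2 fold change of -1.78, and their summed level was 16398 to 17028 CPM with vehicle and 4272 to 4692 CPM with IL-1β. The largest of these 10 falls were those of *Matn1* (log2 fold change -2.79), *Acan* (-2.37), *Comp* (-2.33) and *Col2a1* (-1.98). Of 15 macrophage and leukocyte markers, 2 were tested, *Cd68* rose by 0.67 and *Lyz2* had a log2 fold change of -0.60, and *Elane*, *Mpo* and *Cd3e* had 0 counts in all 8 samples. *Lyz2* passed the test narrowly (adjusted p = 0.0364, edgeR) and lost its call in 8 of the 14 alternatives in which it was tested, among them DESeq2 (adjusted p = 0.108). The summed level of the list was 12.2 to 13.4 CPM with vehicle and 16.8 to 19.6 CPM with IL-1β. Of the 7 synovial and other fibroblast markers 3 were tested and rose, *Pdpn* by 2.26, *Prg4* by 1.23 and *Pdgfra* by 0.58, and the list sum was 866 to 916 CPM with vehicle and 2031 to 2147 CPM with IL-1β, nearly all of it from *Prg4*, which superficial chondrocytes also make. Osteoblast markers summed to 85.2 to 96.4 CPM with vehicle and 26.2 to 31.8 CPM with IL-1β, and the 3 of 5 tested fell, with log2 fold changes of -3.69 for *Ibsp*, -1.62 for *Bglap* and -1.42 for *Sp7*. Adipocyte markers summed to 9.43 to 11.4 and 2.80 to 4.23 CPM, with *Pparg* as the single tested gene of 6, and the 5 endothelial markers were too low to test, at 0.753 to 1.00 and 0.651 to 1.25 CPM in sum. The part of cell composition in the C/EBP values was not tested.

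Genes whose pattern was most like that of each member were ranked by Pearson's r of log2(CPM + 1) over the 8 samples among 10351 genes with a mean of at least 5 CPM, as a description. The 8 samples fall into 2 groups, so a high r mainly marks genes that separate the groups with little spread. For *Cebpd* these were *Fth1* (r = 0.9997), the ferritin heavy chain, *Rnd1* and *Col5a2*, which rose by 2.24, 1.14 and 0.56 on the log2 scale. For *Cebpb* they were *Lipa*, *Man2a2* and *Fam162a* (r = 0.9993 each), and for *Cebpa* *Tor4a* (r = 0.9978), *Arhgap44* and *Mapk8ip3*. For *Cebpg*, *Kdm4c* (r = 0.9896) and *Rabep1* were among them, with log2 fold changes of -0.25 and -0.19. For *Cebpz*, *A630089N07Rik* (r = 0.9593), *Nectin3* and *Lsm6* came first.

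Total counts were 10992355 to 17104351 in the IL-1β and 13970959 to 17456063 in the vehicle samples, and a single gene, *Gm26917*, took 13.2 to 14.6% of them.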

How the data were processed

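RNA-Seq covered 8 samples, 4 with IL-1β and 4 with vehicle, and the treatment label of each sample gave its group. Before deposit, the authors used cutadapt for trimming, aligned to mm10 by STAR (2.4.2a per the submitters' processing notes; the methods name a later release) and obtained gene counts by featureCounts. They deposited raw counts, as whole numbers, for 54658 gene symbols. A deposited length column, in bases (unit: other), served for levels per kilobase. RUVseq batch correction is named in the methods, and whether these counts precede or follow it is not given in the sources used here. How strand and reads in overlapping genes were handled is likewise not given. All 8 count columns were used, and other data of the study were not analysed here.

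The quasi-likelihood test of edgeR 4.0.16 (R 4.3.3, with limma 3.58.1) was run after TMM scaling with treatment as its single term. The 14404 genes tested reached a CPM above 1 in 4 or more samples, or 3 where a sample was left out. Prior degrees of freedom were 20.9 and the common biological coefficient of variation 4.11%. P-values were adjusted by Benjamini-Hochberg over all genes tested. Standard errors are the log2 fold change divided by the root of the F statistic, and 95% CIs use the t distribution. On data simulated for IL-1β against vehicle, edgeR recovered 196 of 200 changed genes with 11 false calls over 14217 genes, DESeq2 193 with 5, and with no changed gene both made 0 calls among 14229. A count of 3 was taken as the smallest that shows an abundance, 0.172 to 0.273 CPM, and a bound on a fold sets every vehicle sample at it. Such floors cover counting error only.

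Ratios of counts were compared by exact permutation tests (scipy 1.17.1, numpy 2.4.6, pandas 2.3.3, Python 3.11.15), and figures were drawn with matplotlib 3.10.9. Positions came from GENCODE vM21 on GRCm38, the assembly of mm10, in which the exon lengths of all 5 members equal the deposited lengths. Promoters came from RefSeq for GRCm38.p6 and were matched by symbol for 3 members. The members and the gene lists were chosen with earlier results of these data known. Named genes are the 5 members, up to 4 genes per list with the largest absolute log2 fold change among those called, a few close relatives, partners and regulators (*Cebpe*, *Ddit3*, *Atf4*, *Stat3*, *Nfkbiz*, *Trib1*, *Fbxw7*, *Noc2l*), genes within 10 kb of a member and the 3 genes most alike to each. A gene that this rule names is not reported here. *Ptgs2*, *Orm2* and *Il6*, with the other untested inflammatory genes, were named after their values were seen. Alternatives were DESeq2 1.42.0, size factors of DESeq2 or the library total instead of TMM, no filter or a CPM above 1 in all 8 samples, the replicate number as a block, 1 factor of unwanted variation, a log2 fold change beyond 1, a pseudocount of 1 for ratios, TMM-scaled CPM per kilobase, and each sample left out in turn. The length of the longest transcript for levels was added after the data were seen.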

Additional observations from a re-analysis of the deposited data

Results flagged for a closer look

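In each group of 4 samples, the highest and the lowest value were compared with the nearest other value using the 95% threshold of Dixon's ratio. Of 116 groups of 4 values, 6 exceeded it, where about 5.8, or 1 in 20, exceed it by chance.

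Within the C/EBP family, 3 ratios of counts had a sample apart from its group. The log2 ratio *Cebpb/Cebpd* was 0.579 in IL-1β replicate 1 and 0.437 to 0.458 in the other IL-1β samples. The log2 ratio *Cebpb/Cebpg* was 1.25 in vehicle replicate 4 and 1.15 to 1.16 in the other vehicle samples, and *Cebpb/Cebpz* was 1.92 in vehicle replicate 3 and 1.99 to 2.00 in the others. All 3 gaps are small beside the changes between the groups in these ratios, which were -0.71, 1.46 and 1.34.

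Among the listed genes, *Comp* was at 551 CPM in vehicle replicate 4 and at 525 to 529 CPM in the other vehicle samples. *Lpl*, which encodes lipoprotein lipase, was at 9.82 CPM in IL-1β replicate 4 and in the remaining IL-1β samples at 7.39 to 7.50 CPM. *Nop58*, a nucleolar protein gene, was at 129 CPM in IL-1β replicate 3 and at 140 to 142 CPM in the others.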

How the results depend on the processing

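Of 637 values recomputed under alternatives, 607 kept their direction and their side of the threshold or, for counts, stayed within 1.5 times, and none reversed. The log2 fold changes of the members all did so, at 0.99 to 1.10 for *Cebpa*, 1.28 to 1.33 for *Cebpb*, 1.99 to 2.03 for *Cebpd*, -0.19 to -0.12 for *Cebpg* (adjusted p up to 0.0207) and -0.044 to -0.019 for *Cebpz* (adjusted p from 0.488 to 0.794). The order of levels was the same in all 10 alternatives. Where a sample was left out or rescaled this was fixed in advance, since every sample held the same order. Only the length of the longest transcript could have changed it. Other values could hardly change either, such as counts of the endothelial list, of which no gene was tested in the main fit. The 607 of 637 thus overstates how far the results were put to a test. With a log2 fold change beyond 1 required, the members called lower were 0 in place of 1. The inflammatory targets called higher were 9 with a CPM above 1 in all 8 samples, where fewer genes were tested, and those called lower were 1, *Ptgs2*, with 1 factor of unwanted variation (log2 fold change -0.07, adjusted p = 0.0405) and 0 to 1 with a sample left out (1 without IL-1β replicate 1 or vehicle replicate 1). The nucleolar genes called higher were 2 with 1 factor of unwanted variation, and 1 to 2 with a sample left out (2 without IL-1β replicate 2). The macrophage and leukocyte markers called lower, a single gene (*Lyz2*), were 0 with a CPM above 1 in all 8 samples, DESeq2, no filter or the replicate block, and 0 to 1 with a sample left out (0 without IL-1β replicates 2, 3 or 4 or vehicle replicates 1 or 3). Except where noted, the cause was not tested.

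Replicate numbers are shared between the groups. The deviations of samples with the same number correlated at -0.0699 to 0.0415 (mean -0.0227, against 0.00755 for other pairs). Of 4 samples, 1 correlated best with its own number. With 4 numbers this check cannot decide whether samples of the same number had a common origin, which the sources used here do not give. With the replicate block in edgeR, no call of a member changed. With the block for the ratios of members, the smallest p that 4 pairs allow is 0.125, so no ratio could pass: the changes were -0.26 for *Cebpa/Cebpb*, -0.97 for *Cebpa/Cebpd*, 1.20 for *Cebpa/Cebpg*, 1.08 for *Cebpa/Cebpz*, -0.71 for *Cebpb/Cebpd*, 1.46 for *Cebpb/Cebpg*, 1.34 for *Cebpb/Cebpz*, 2.17 for *Cebpd/Cebpg* and 2.05 for *Cebpd/Cebpz*. With a sample left out, *Cebpa/Cebpb* ranged from -0.32 to -0.19 (adjusted p = 0.0635, exact permutation test, without any 1 vehicle sample) and *Cebpg/Cebpz* from -0.15 to -0.09. Depth limits *Cebpa* most among the members, at 119 to 315 counts per sample.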
